A study of Mus musculus with 8 samples.

Results

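Co-inhibitory receptors are cell-surface proteins that dampen T cell activation. The 9 genes described here are Ctla4, Pdcd1, Btla, Vsir, Lag3, Havcr2, Tigit, Cd200 and Lilrb4a, measured by 11 array probes whose RefSeq accession maps to these symbols. They are 9 of the 21150 genes with a named probe, and all 9 were among the 13494 genes bright enough to test. RNA came from freshly sorted mouse CD4 single-positive thymocytes, T cells in the thymus that have kept CD4 and lost CD8. Nr4a-TKO preTreg were regulatory T cell precursors labelled as lacking the Nr4a nuclear receptors and gated for high levels of CD25, GITR and Nr4a3. The Foxp3-KO preTreg group held precursors labelled as Foxp3-deficient and gated as high in CD25 with a Foxp3 reporter switched on. WT Treg were wild-type thymic regulatory T cells that had Foxp3, and the WT Tconv group was made up of conventional T cells of wild-type mice, sorted as low in CD25. Each of the 4 groups had 2 biological replicates, each on its own array. Precursors of wild-type mice were not among the groups, so a precursor group and a wild-type group differ in genotype and in gate at the same time.

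The receptors work by several routes. CTLA-4 takes the ligands CD80 and CD86 away from the activating receptor CD28, and regulatory T cells depend on it to restrain other T cells. PD-1 (Pdcd1), BTLA and LILRB4 recruit phosphatases through inhibitory motifs in their tails, LAG-3 binds MHC class II, TIGIT competes with CD226 for the ligand CD155, and TIM-3 (Havcr2) and VISTA (Vsir) are further brakes on T cells. CD200 is a surface glycoprotein that engages an inhibitory receptor on myeloid cells. Several of these genes rise after T cell receptor stimulation and are read as marks of activation or exhaustion in mature T cells. They are not confined to T cells: macrophages and dendritic cells express Havcr2, Vsir and Lilrb4a, and B cells express Btla and Cd200.

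Values are log2 signals relative to the 75th percentile of the array. An array value flagged in the files as not well above background is named as such. A difference is the first-named group minus the second in log2 units ± SE from limma, a linear model for arrays fitted to all 4 groups with 2 arrays each. It was called at an adjusted p under 0.05, with Benjamini-Hochberg adjustment over the 13494 genes of a comparison. The SE of a gene pools the spread of all 4 groups, so groups outside a comparison can set it. Where no array of a group rose above background, the fold is a lower bound, computed against the dimmest signal well above background on those arrays or the probe's own signal, whichever was higher. The adjusted p beside a bound belongs to the fitted difference, which uses the values not well above background, and does not test the bound. Because a level on an array depends on the probe, levels were compared between groups for a gene and never between genes. Fewer cells that express a gene and less of its RNA in each cell cannot be told apart in such bulk samples.

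The arrays gave similar signal, with 47.7% to 52.1% of probes well above background. Over the tested genes, which do not vary independently, the replicates correlated at r = 0.990 in Nr4a-TKO preTreg, 0.976 in Foxp3-KO preTreg, 0.990 in WT Treg and 0.997 in WT Tconv. All 9 CD4 T cell markers examined were above background on all 8 arrays, as were the CD8 lineage markers Cd8a and Cd8b1. Against WT Tconv 5 CD4 T cell markers were called lower in Nr4a-TKO preTreg, 2 in Foxp3-KO preTreg and 8 in WT Treg, with 0 higher. Of all tested genes 26.8%, 14.3% and 21.5% were called lower there and 21.5%, 10.4% and 13.8% higher. Both CD8 lineage markers were called lower in WT Treg than in WT Tconv (differences of -1.34 and -1.22). Against WT Treg 1 of the 2 was called higher in Nr4a-TKO preTreg and 1 in Foxp3-KO preTreg, where 19.5% and 3.48% of tested genes were. Foxp3 averaged 3.52 in Nr4a-TKO preTreg, 1.86 in Foxp3-KO preTreg, 4.86 in WT Treg and -3.59 in WT Tconv, and Nr4a2 was higher in Nr4a-TKO preTreg than in WT Treg (2.10 ± 0.20, adjusted p = 0.00198). Nr4a1 and Nr4a3 did not pass between these groups, at 7.73 and 7.96 in Nr4a-TKO preTreg against 7.28 and 7.62 in WT Treg for Nr4a1, and at -0.42 and -0.12 against -0.36 and 1.01 for Nr4a3. The sources used here do not state which parts of the targeted genes were deleted. These probes therefore check no genotype, and the direction of each difference rests on the labels. All arrays were on 1 slide. Nr4a-TKO preTreg and WT Tconv were in its first row and Foxp3-KO preTreg and WT Treg in the other, so only Nr4a-TKO preTreg against WT Tconv and Foxp3-KO preTreg against WT Treg compare arrays of the same row. In the other comparisons row and group cannot be told apart.

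Every one of the 9 receptor genes was brightest in Nr4a-TKO preTreg. For 9 of 9 both Nr4a-TKO preTreg arrays lay above the other 6 arrays, a pattern found in 19.8% of all tested genes. For 7 of 9, all but Btla and Vsir, both WT Tconv arrays lay below the other 6, a pattern of 14.6% of tested genes. For these 7 WT Treg and Foxp3-KO preTreg lay between, and no receptor gene of the 9 was called between those groups. For Tigit the order of Foxp3-KO preTreg replicate 2 (-4.16) and WT Tconv replicate 2 (-4.19) is undecided, as neither value was well above background.

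**Figure D1:**
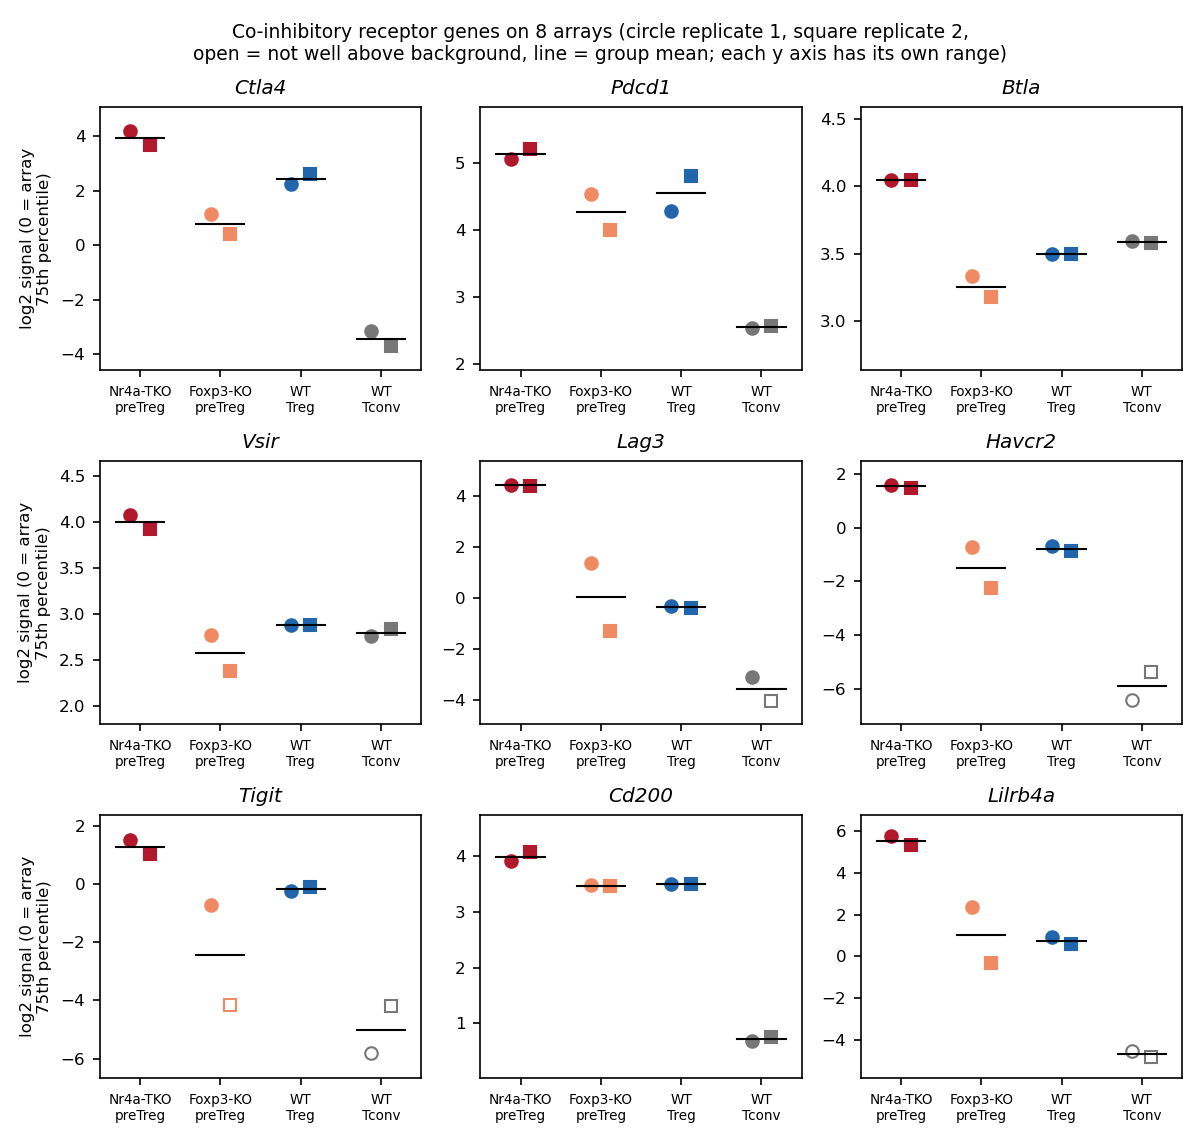
Log2 signal of each receptor gene relative to the 75th percentile of its array (y axis, with its own range in each panel) in the 4 groups (x axis), with a circle for replicate 1, a square for replicate 2, an open symbol for a value not well above background and a line for the group mean. In all 9 panels both Nr4a-TKO preTreg points lie above the other 6, and the Foxp3-KO preTreg points of Lag3, Havcr2, Tigit and Lilrb4a lie far apart.

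Among receptors of the CD28 family, Ctla4 varied most between groups. Its log2 signal was 4.17 and 3.68 in Nr4a-TKO preTreg, 1.15 and 0.40 in Foxp3-KO preTreg, 2.25 and 2.60 in WT Treg and -3.16 and -3.69 in WT Tconv. The 4 groups did not overlap, in the order Nr4a-TKO preTreg, WT Treg, Foxp3-KO preTreg and WT Tconv. Against WT Tconv, Ctla4 was 163-fold higher in Nr4a-TKO preTreg (7.35 ± 0.34, adjusted p = 0.000219), 18.4-fold in Foxp3-KO preTreg (4.20 ± 0.34, adjusted p = 0.00205) and 57.7-fold in WT Treg (5.85 ± 0.34, adjusted p = 0.000423). Those 3 calls held with each array left out. Ctla4 was also higher in Nr4a-TKO preTreg than in WT Treg (1.5 ± 0.34, adjusted p = 0.0219), a call that ended without Nr4a-TKO preTreg replicate 1 or either WT Treg array (1.25 to 1.75 over the 8 removals), and than in Foxp3-KO preTreg (3.15 ± 0.34, adjusted p = 0.00323). Its Foxp3-KO preTreg level was 1.65 ± 0.34 log2 units below that of WT Treg, with an adjusted p of 0.0503 that just missed the threshold (95% interval of the difference -2.48 to -0.81). That difference was called with quantile normalization (adjusted p = 0.0468), normexp background correction (0.0147), the authors' deposited matrix (0.0497) and without Foxp3-KO preTreg replicate 1, where it was -2.02.

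Pdcd1, which encodes PD-1, was well above background on all 8 arrays. The log2 signal of this gene was 5.07 and 5.21 in Nr4a-TKO preTreg, 4.54 and 4.0 in Foxp3-KO preTreg, 4.29 and 4.81 in WT Treg and 2.53 and 2.56 in WT Tconv. The 2 middle groups overlapped and both lay above WT Tconv. Relative to WT Tconv, Pdcd1 was 6.03-fold higher in Nr4a-TKO preTreg (2.59 ± 0.24, adjusted p = 0.00121), 3.30-fold in Foxp3-KO preTreg (1.72 ± 0.24, adjusted p = 0.00911) and 4.01-fold in WT Treg (2.0 ± 0.24, adjusted p = 0.00327). The Foxp3-KO preTreg call ended without either WT Tconv array (1.45 to 1.99 over the 8 removals). It was higher in Nr4a-TKO preTreg than in Foxp3-KO preTreg (0.87 ± 0.24, adjusted p = 0.0395), a call that ended when any of 5 arrays was left out (0.60 to 1.14 over all 8 removals). Against WT Treg the difference of 0.59 ± 0.24 did not pass (adjusted p = 0.106, 95% interval -0.0034 to 1.18).

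Btla, the receptor for the TNF receptor family member HVEM, differed least between groups. Its log2 signal was 4.05 and 4.05 in Nr4a-TKO preTreg, 3.33 and 3.17 in Foxp3-KO preTreg, 3.5 and 3.5 in WT Treg and 3.60 and 3.58 in WT Tconv. Replicates were close, and WT Treg and WT Tconv differed by -0.09 ± 0.08 (adjusted p = 0.409). Btla was 1.37-fold higher in Nr4a-TKO preTreg than in WT Tconv (0.46 ± 0.08, adjusted p = 0.00655), 1.46-fold higher than in WT Treg (0.55 ± 0.08, adjusted p = 0.00578) and 1.73-fold higher than in Foxp3-KO preTreg (0.79 ± 0.08, adjusted p = 0.00261). These 3 calls held with each array left out. Of the 9 receptor genes Btla alone was called lower in any of the 6 comparisons, in Foxp3-KO preTreg against WT Tconv (-0.34 ± 0.08, adjusted p = 0.0312). That call ended with quantile normalization (-0.24, adjusted p = 0.0801) and when any of 6 arrays was left out.

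Vsir, which encodes VISTA, was set apart in Nr4a-TKO preTreg alone. Its brighter probe read 4.08 and 3.92 in Nr4a-TKO preTreg, 2.77 and 2.38 in Foxp3-KO preTreg, 2.88 and 2.88 in WT Treg and 2.76 and 2.83 in WT Tconv. The last 3 groups lay within a narrow band, with Foxp3-KO preTreg and WT Tconv overlapping. Vsir was 2.30-fold higher in Nr4a-TKO preTreg than in WT Tconv (1.20 ± 0.14, adjusted p = 0.00233), 2.17-fold higher than in WT Treg (1.12 ± 0.14, adjusted p = 0.00407) and 2.68-fold higher than in Foxp3-KO preTreg (1.42 ± 0.14, adjusted p = 0.00277). Its second probe gave 0.72 ± 0.12, 0.94 ± 0.12 and 1.07 ± 0.12 for the same 3 comparisons, each with an adjusted p of 0.00714 or less over all probes. Between WT Treg and WT Tconv the brighter probe gave 0.08 ± 0.14 and the second -0.22 ± 0.12, neither called.

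Lag3, a receptor related to CD4 that binds MHC class II, was far brighter in Nr4a-TKO preTreg than elsewhere. Its log2 signal was 4.45 and 4.41 in Nr4a-TKO preTreg, 1.37 and -1.28 in Foxp3-KO preTreg, -0.31 and -0.38 in WT Treg and -3.09 and -4.01 in WT Tconv, where the second array was not well above background. The Foxp3-KO preTreg arrays lay on either side of WT Treg. Against WT Tconv, with 1 of its 2 arrays measured, the fitted difference was 7.98 ± 0.84 in Nr4a-TKO preTreg (adjusted p = 0.00177), 3.60 ± 0.84 in Foxp3-KO preTreg (adjusted p = 0.0333) and 3.21 ± 0.84 in WT Treg (adjusted p = 0.0338). The Foxp3-KO preTreg and WT Treg calls each ended when any of 6 arrays was left out, and the WT Treg call ended with normexp (1.69, adjusted p = 0.0549). Lag3 was 27.3-fold higher in Nr4a-TKO preTreg than in WT Treg (4.77 ± 0.84, adjusted p = 0.0114) and 20.9-fold higher than in Foxp3-KO preTreg (4.39 ± 0.84, adjusted p = 0.0152). The first of these calls ended without Nr4a-TKO preTreg replicate 1 or either WT Treg array (4.74 to 4.81), and the second without either Nr4a-TKO preTreg array. Without Foxp3-KO preTreg replicate 1 the difference from Foxp3-KO preTreg was 5.71, and without its replicate 2 it was 3.06.

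Havcr2, which encodes TIM-3, was not well above background in WT Tconv. Its log2 signal was 1.58 and 1.49 in Nr4a-TKO preTreg, -0.74 and -2.26 in Foxp3-KO preTreg and -0.70 and -0.88 in WT Treg, against -6.43 and -5.37 in WT Tconv. Foxp3-KO preTreg and WT Treg overlapped, with WT Treg replicate 2 between the Foxp3-KO preTreg arrays and replicate 1 just above them. Compared with WT Tconv, Havcr2 was at least 83.3-fold higher in Nr4a-TKO preTreg (adjusted p = 0.000785), at least 10.2-fold in Foxp3-KO preTreg (adjusted p = 0.00764) and at least 16.6-fold in WT Treg (adjusted p = 0.00263). The Foxp3-KO preTreg call ended without WT Tconv replicate 1, and its bound was 6.0-fold without Foxp3-KO preTreg replicate 1 and 17.2-fold without replicate 2. It was 5.01-fold higher in Nr4a-TKO preTreg than in WT Treg (2.33 ± 0.56, adjusted p = 0.0270) and 8.19-fold higher than in Foxp3-KO preTreg (3.03 ± 0.56, adjusted p = 0.0136). The first of these 2 calls ended without either array of either group (2.24 to 2.42 over the 8 removals), and the second ended without either Nr4a-TKO preTreg array and moved to 2.27 without Foxp3-KO preTreg replicate 2.

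Tigit showed the widest spread between replicates. Its log2 signal was 1.51 and 1.03 in Nr4a-TKO preTreg, -0.72 and -4.16 in Foxp3-KO preTreg and -0.24 and -0.09 in WT Treg, against -5.81 and -4.19 in WT Tconv. Foxp3-KO preTreg replicate 2 and both WT Tconv arrays were not well above background, so Foxp3-KO preTreg was measured on 1 of 2 arrays. Tigit was at least 64.0-fold higher in Nr4a-TKO preTreg than in WT Tconv (adjusted p = 0.00870) and in WT Treg by a factor of at least 23.6 (adjusted p = 0.0254). The first call ended without WT Tconv replicate 1 and the second without any one array of WT Treg or WT Tconv. For Foxp3-KO preTreg, with 1 of its arrays not well above background, no fold is given, and the test was not passed (adjusted p = 0.152). The spread behind the shared SE of Tigit was uneven. Replicate SDs were 0.34 in Nr4a-TKO preTreg and 0.10 in WT Treg, but 2.43 in Foxp3-KO preTreg and 1.15 in WT Tconv. The difference between Nr4a-TKO preTreg and WT Treg was 1.44 ± 1.15 (adjusted p = 0.364, 95% interval -1.42 to 4.30). Between the precursor groups it was 3.71 ± 1.15 (adjusted p = 0.0556), and it was called with normexp (2.47, adjusted p = 0.00798), with median scaling (3.79, adjusted p = 0.0493) and without Foxp3-KO preTreg replicate 1 (5.43).

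Cd200 had close replicates and separated WT Tconv from the rest. Its signal on the log2 scale was 3.92 and 4.07 in Nr4a-TKO preTreg, 3.49 and 3.47 in Foxp3-KO preTreg, 3.51 and 3.51 in WT Treg and 0.68 and 0.75 in WT Tconv. Foxp3-KO preTreg and WT Treg were nearly level, with a difference of -0.03 ± 0.08 (95% interval -0.23 to 0.16). Against WT Tconv, Cd200 was 9.71-fold higher in Nr4a-TKO preTreg (3.28 ± 0.08, adjusted p = 0.000119), 6.77-fold in Foxp3-KO preTreg (2.76 ± 0.08, adjusted p = 0.000176) and 6.93-fold in WT Treg (2.79 ± 0.08, adjusted p = 0.000113). Those calls held with each array left out. Cd200 was 1.40-fold higher in Nr4a-TKO preTreg than in WT Treg (0.49 ± 0.08, adjusted p = 0.00888), a call that ended without WT Treg replicate 2 (0.41 to 0.56 over the 8 removals), and 1.43-fold higher than in Foxp3-KO preTreg (0.52 ± 0.08, adjusted p = 0.00809).

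Lilrb4a, an inhibitory receptor of the leukocyte immunoglobulin-like family, had the highest lower bound of the 9. Its brighter probe read 5.75 and 5.35 in Nr4a-TKO preTreg, 2.37 and -0.31 in Foxp3-KO preTreg and 0.91 and 0.58 in WT Treg, against -4.56 and -4.82 in WT Tconv, neither well above background. The Foxp3-KO preTreg arrays again lay on either side of WT Treg. Compared with WT Tconv, Lilrb4a was at least 1057-fold higher in Nr4a-TKO preTreg (adjusted p = 0.000916), at least 46.3-fold in Foxp3-KO preTreg (adjusted p = 0.00998) and at least 37.8-fold in WT Treg (adjusted p = 0.00681). It was 28.0-fold higher in Nr4a-TKO preTreg than in WT Treg (4.80 ± 0.82, adjusted p = 0.0104) and 22.9-fold higher than in Foxp3-KO preTreg (4.51 ± 0.82, adjusted p = 0.0131). Without Foxp3-KO preTreg replicate 1 the last difference was 5.85, and without its replicate 2 it was 3.18. Both calls ended without Nr4a-TKO preTreg replicate 1, the WT Treg one also without WT Treg replicate 2, and the Foxp3-KO preTreg call against WT Tconv ended without either WT Tconv array. The bound of that last call was 18.3-fold without Foxp3-KO preTreg replicate 1 and 117-fold without replicate 2. The second probe gave 4.63 ± 0.67 and 4.06 ± 0.67 for the same pair of comparisons. Lilr4b, a neighbouring gene of near-identical sequence whose product lacks the inhibitory motifs, followed the same pattern, at 1.81 and 1.66 in Nr4a-TKO preTreg, -1.49 and -3.58 in Foxp3-KO preTreg, -2.79 and -2.85 in WT Treg and -5.26 and -6.40 in WT Tconv. A probe of such a pair can read RNA of both, so the share of each gene in these signals is uncertain.

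Set against WT Tconv, the receptor genes were mostly higher in all 3 other groups. In Nr4a-TKO preTreg 9 of 9 were called higher, and 0 lower, where 21.5% and 26.8% of tested genes were, with a median difference of 6.27, or 6.0 with undetected genes at their bound, beside -0.10 over all tested genes. In Foxp3-KO preTreg 6 of 9 were called higher and 1 lower, where 10.4% and 14.3% of tested genes were. The median was 2.76, against -0.10 over all tested genes, and Tigit and Vsir were not called. In WT Treg 7 of 9 were called higher and 0 lower, where 13.8% and 21.5% of tested genes were, with a median of 3.21 against -0.09. Btla and Vsir were the pair not called there. At an unadjusted p under 0.05 the counts were 9, 7 and 7.

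**Figure D2:**
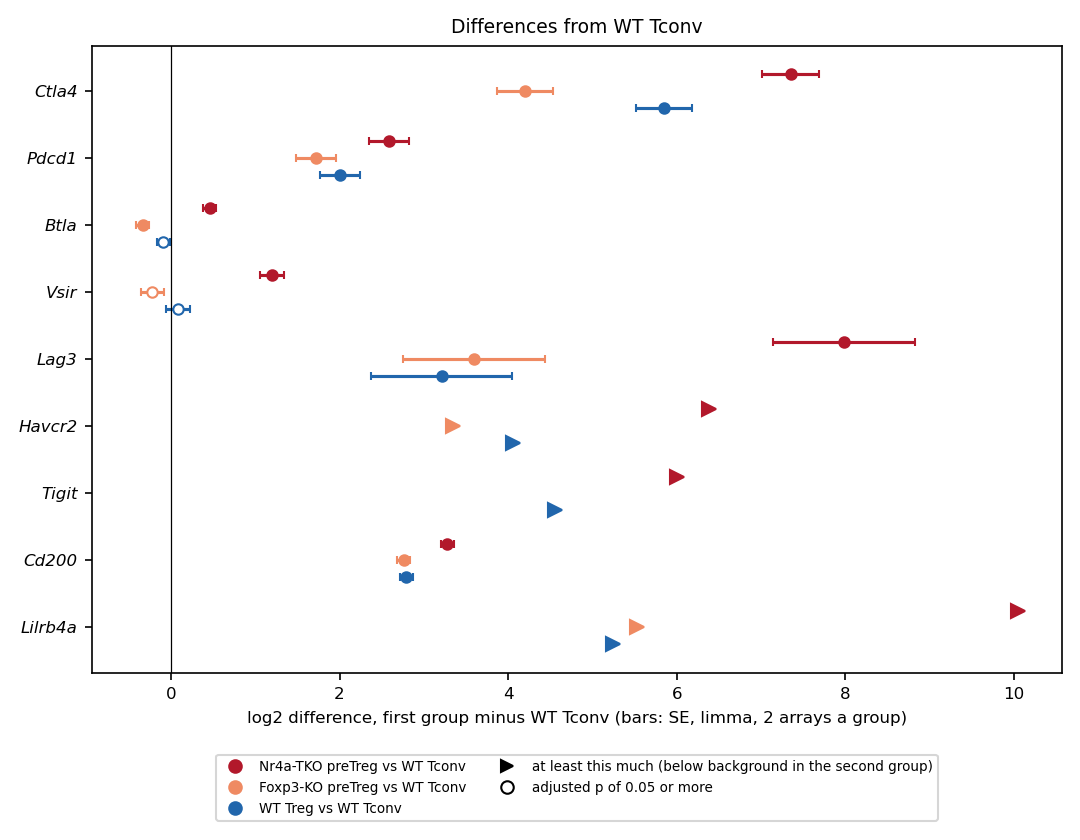
Log2 difference of each receptor gene from WT Tconv (x axis, bars are the SE from limma with 2 arrays a group) for Nr4a-TKO preTreg, Foxp3-KO preTreg and WT Treg, with a triangle for a lower bound and an open symbol for an adjusted p of 0.05 or more. Tigit in Foxp3-KO preTreg, not well above background on 1 of its arrays, has no symbol. Nr4a-TKO preTreg has the highest value for each gene, from 0.46 for Btla to a bound of at least 1057-fold for Lilrb4a, and Btla and Vsir lie near 0 in the other groups.

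The count for Foxp3-KO preTreg against WT Tconv depended on single arrays: it was 2 without WT Tconv replicate 1 and 3 without WT Tconv replicate 2, with Ctla4 and Cd200 called each time. It was 7 without Foxp3-KO preTreg replicate 1 and 8 without its replicate 2. For Nr4a-TKO preTreg it was 8 or 9 whichever array was left out, Tigit being lost without WT Tconv replicate 1, and for WT Treg it was 5 to 7.

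Among the 3 groups of the regulatory lineage, Nr4a-TKO preTreg stood above the others. Against WT Treg 7 of 9 receptor genes were called higher and 0 lower, where 19.5% and 15.9% of tested genes were, with a median difference of 1.44 beside 0.01 over all tested genes. Pdcd1 and Tigit were not called. Against Foxp3-KO preTreg 8 of 9 were called higher and 0 lower, where 18% and 15.7% of tested genes were, with a median of 3.03 beside 0.02. The exception was Tigit. These comparisons share the Nr4a-TKO preTreg arrays with the one against WT Tconv.

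**Figure D3:**
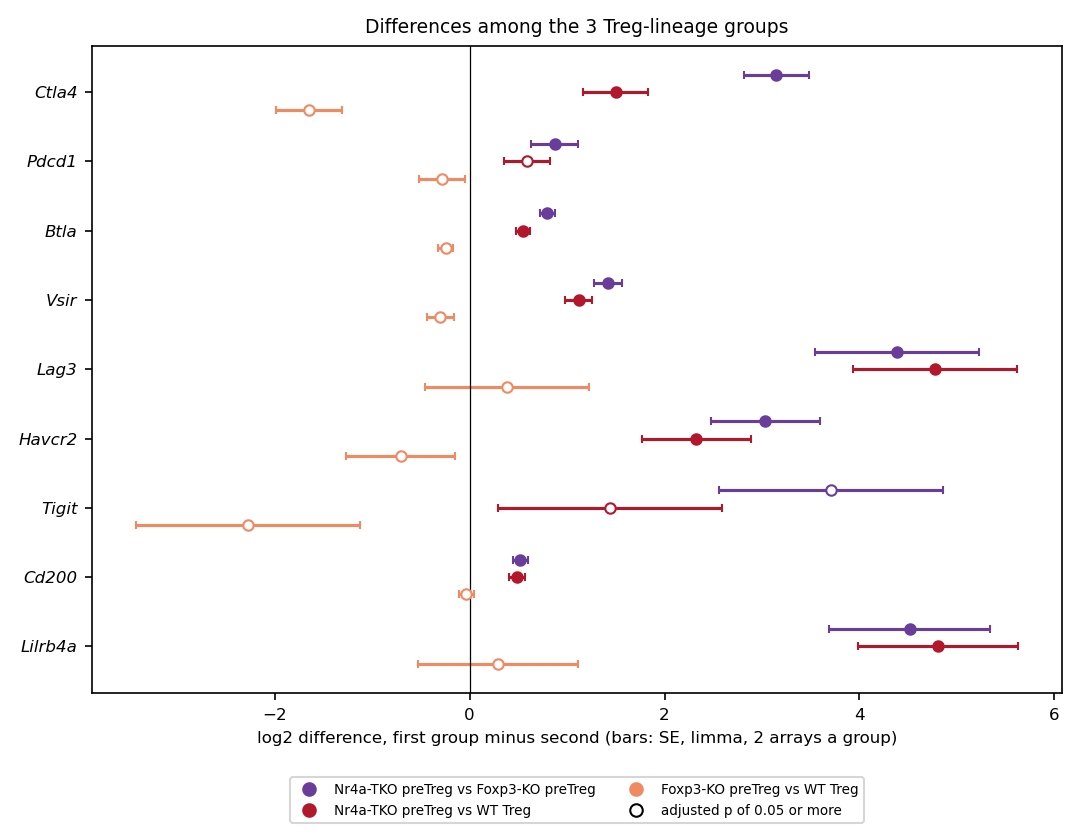
Log2 differences of the 9 receptor genes among Nr4a-TKO preTreg, Foxp3-KO preTreg and WT Treg (x axis, bars are the SE from limma with 2 arrays a group), with open symbols for an adjusted p of 0.05 or more. All values for Nr4a-TKO preTreg lie right of 0, between 0.49 and 4.80, and no Foxp3-KO preTreg against WT Treg value is filled.

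Without WT Treg replicate 2 the count against WT Treg was 2 (Btla and Vsir), without WT Treg replicate 1 it was 4, and without Nr4a-TKO preTreg replicate 1 it was 3. Against Foxp3-KO preTreg the count was 4 without Nr4a-TKO preTreg replicate 1, 5 without its replicate 2 and 9 without Foxp3-KO preTreg replicate 1. A fit of the 2 precursor groups alone called 3 (Ctla4, Btla and Vsir).

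Foxp3-KO preTreg and WT Treg gave 0 calls of 9 in limma, where 3.48% of tested genes were called higher and 2.93% lower. At an unadjusted p under 0.05 there were 2, Ctla4 and Btla (-0.25 ± 0.08, adjusted p = 0.122). The median difference was -0.28, beside 0.00 over all tested genes. The intervals of several genes were wide: for Lag3 the difference was 0.39 ± 0.84 (95% interval -1.71 to 2.48), for Lilrb4a 0.29 ± 0.82 (-1.76 to 2.34), for Havcr2 -0.71 ± 0.56 (-2.10 to 0.69) and for Tigit -2.27 ± 1.15 (-5.14 to 0.59). These 4 genes are those whose Foxp3-KO preTreg replicates lay farthest apart. Without Foxp3-KO preTreg replicate 1, Lag3 was at -0.94 and Lilrb4a at -1.05, and 3 genes were called lower (Ctla4, Tigit and Vsir). Foxp3-KO preTreg is then a lone array assumed to vary like the other groups, and its Tigit value is not well above background. Without replicate 2, under the same assumption, Havcr2 was at 0.05 and 1 gene was called, Lilrb4a at 1.63.

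Markers of other cell types moved with some of these differences. Summed as multiples of the array's 75th percentile, 14 myeloid markers reached 79.5 and 45.8 in Nr4a-TKO preTreg, 82.0 and 28.2 in Foxp3-KO preTreg, 22.3 and 8.98 in WT Treg and 6.98 and 6.77 in WT Tconv. A further 2 genes of that list, Siglech and Itgam, were high on all 8 arrays and were left out of the sum after their values were seen. With them, 14 to 15 of 16 were above background in Nr4a-TKO preTreg, 13 to 15 in Foxp3-KO preTreg, 13 in WT Treg and 11 in WT Tconv. The 9 B cell markers summed to 70.9 and 17.4 in Nr4a-TKO preTreg, 20.6 and 4.36 in Foxp3-KO preTreg, 5.28 and 3.71 in WT Treg and 1.84 and 1.66 in WT Tconv. Of these 7 to 9 were above background in Nr4a-TKO preTreg, 5 to 7 in Foxp3-KO preTreg, 3 to 5 in WT Treg and 3 in WT Tconv. Pax5 was above background on Nr4a-TKO preTreg replicate 1 only. The 9 NK cell markers summed to 7.02 and 6.39 in Nr4a-TKO preTreg, 59.1 and 6.31 in Foxp3-KO preTreg, 2.71 and 1.85 in WT Treg and 16.8 and 16.6 in WT Tconv. In Nr4a-TKO preTreg against WT Tconv 2 of the 9 were called lower and 0 higher, where 26.8% and 21.5% of tested genes were. By sign alone 7 were lower and 2 higher. Ncr1, not called, was among the higher ones, well above background on both Nr4a-TKO preTreg arrays (-2.91 and -3.46) and on no WT Tconv array.

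**Figure D4:**
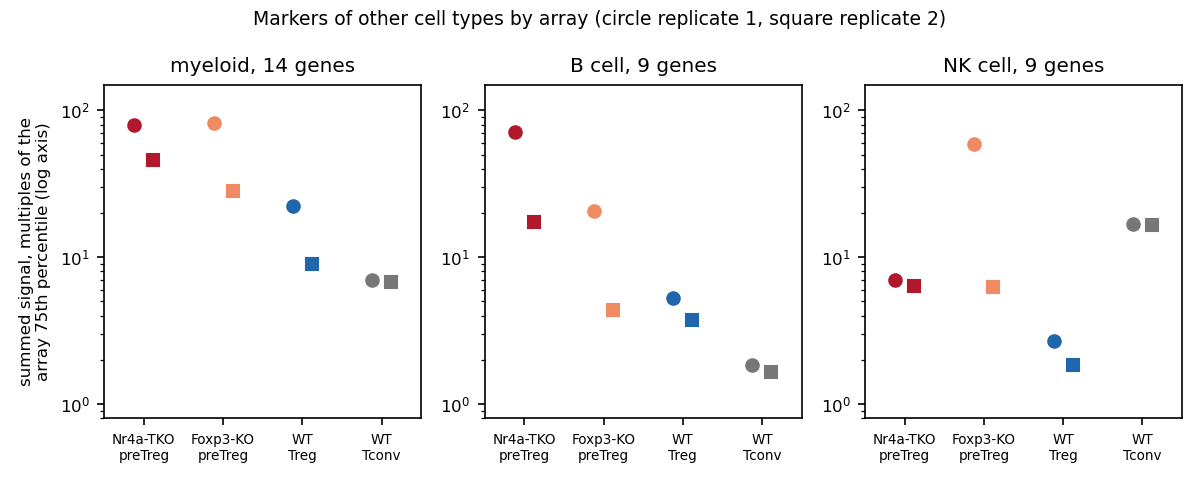
Summed signal of markers of other cell types on each array (y axis, multiples of the array's 75th percentile, log scale) in the 4 groups, with a circle for replicate 1 and a square for replicate 2. Myeloid and B cell sums are higher in both precursor groups than in WT Tconv, and Foxp3-KO preTreg replicate 1 has an NK cell sum of 59.1 where its replicate 2 has 6.31.

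Foxp3-KO preTreg replicate 1 thus had higher myeloid, B cell and NK cell sums than replicate 2. It also had the higher signal of every receptor gene, with the widest gaps for Lag3, Havcr2, Tigit and Lilrb4a. Nr4a-TKO preTreg replicate 1 likewise had higher myeloid (79.5 against 45.8) and B cell (70.9 against 17.4) sums than its replicate 2. There Lag3 was at 4.45 and 4.41, Havcr2 at 1.58 and 1.49, Tigit at 1.51 and 1.03 and Lilrb4a at 5.75 and 5.35. Ctla4 was at 4.17 and 3.68 and Vsir at 4.08 and 3.92. Pdcd1 (5.07 and 5.21) and Cd200 (3.92 and 4.07) were higher in replicate 2, and Btla was at 4.05 in both. The part of myeloid, B and NK cells in the receptor differences was not tested.

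Genes of the ligands and partners of the receptors changed in both directions. In Nr4a-TKO preTreg against WT Tconv 9 of 16 tested were called higher and 2 lower, where 21.5% and 26.8% of all tested genes were. Both PD-1 ligands rose, Cd274 by 1.26 ± 0.10 (adjusted p = 0.000948) and Pdcd1lg2 by 3.31 ± 0.29 (adjusted p = 0.00108), and Pvr, which encodes the TIGIT ligand CD155, was lower (-1.46 ± 0.17, adjusted p = 0.00248). The MHC class II gene H2-Eb1, whose product LAG-3 binds and which myeloid and B cells express, was higher in Nr4a-TKO preTreg (4.74 ± 0.53, adjusted p = 0.00209) and in Foxp3-KO preTreg (4.08 ± 0.53, adjusted p = 0.00806) than in WT Tconv. Both WT Treg arrays also lay above WT Tconv for H2-Eb1, at 5.62 and 4.03 against 2.24 and 2.27. Against WT Treg, Nr4a-TKO preTreg had 7 called higher and 3 lower, beside 19.5% and 15.9% of all tested genes. Cd86, a CTLA-4 ligand that was 3.24 ± 0.18 higher in WT Treg than in WT Tconv (adjusted p = 0.000403), was lower in Nr4a-TKO preTreg than in WT Treg (-2.06 ± 0.18, adjusted p = 0.00156), as was the TIM-3 ligand Lgals9 (-1.20 ± 0.18, adjusted p = 0.00709). In Foxp3-KO preTreg against WT Treg 1 was called higher and 2 lower, beside 3.48% and 2.93% of all tested genes, the pair being Cd86 (-1.01 ± 0.18, adjusted p = 0.0363) and Tnfrsf14, the gene of the BTLA partner HVEM (-0.83 ± 0.14, adjusted p = 0.0321).

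A list of activating receptors and partners, related to the receptors by family or by ligand, had 7 tested genes. Of these, 3 were called higher and 1 lower in Nr4a-TKO preTreg against WT Tconv, where 21.5% and 26.8% of tested genes were. Against WT Treg 2 were called higher and 0 lower, where 19.5% and 15.9% of tested genes were, and against Foxp3-KO preTreg 3 and 0, where 18% and 15.7% were. Icos, a co-stimulatory relative of CD28, was higher in Nr4a-TKO preTreg than in WT Treg (1.77 ± 0.13, adjusted p = 0.000978). Cd226, which competes with TIGIT, was higher in Nr4a-TKO preTreg than in Foxp3-KO preTreg (0.62 ± 0.15, adjusted p = 0.0305). Cd28 itself was lower in WT Treg than in WT Tconv (-0.68 ± 0.13, adjusted p = 0.0146).

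A list of other inhibitory receptors and relatives held genes called in both directions. Of 16 tested, 6 were called higher and 4 lower in Nr4a-TKO preTreg against WT Tconv, with a median of 0.80, where 21.5% and 26.8% of all tested genes were called. Against WT Treg 4 were called higher and 3 lower, where 19.5% and 15.9% of all tested genes were. Lilr4b, the near-copy of Lilrb4a, is among those called higher in both comparisons. Cd96, which shares the ligand CD155 with TIGIT, was lower in Nr4a-TKO preTreg than in WT Tconv (-1.43 ± 0.11, adjusted p = 0.000863) and than in WT Treg (-2.23 ± 0.11, adjusted p = 0.000526). Cd5, a brake on T cell receptor signalling, was lower in Nr4a-TKO preTreg than in WT Treg (-1.0 ± 0.13, adjusted p = 0.00447). Cd101 was higher than in WT Tconv in Nr4a-TKO preTreg (2.11 ± 0.21, adjusted p = 0.00142), in Foxp3-KO preTreg (1.54 ± 0.21, adjusted p = 0.00839) and in WT Treg (2.21 ± 0.21, adjusted p = 0.00157). Fcgr2b, the inhibitory Fc receptor of B cells and myeloid cells, was at least 45.2-fold higher in Nr4a-TKO preTreg than in WT Tconv (adjusted p = 0.00201).

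Downstream of the receptors, 21 genes of inhibitory signalling and trafficking were tested. In Nr4a-TKO preTreg 6 were called higher and 9 lower against WT Tconv (21.5% and 26.8% of all tested genes), 5 and 6 against WT Treg (19.5% and 15.9%), and 7 and 4 against Foxp3-KO preTreg (18% and 15.7%). Trat1 encodes an adaptor that promotes transport of CTLA-4 to the cell surface in T cells. This gene was lower in Nr4a-TKO preTreg than in WT Treg (-1.89 ± 0.19, adjusted p = 0.00229) and than in WT Tconv (-2.61 ± 0.19, adjusted p = 0.00076). Ptpn11, the gene of the phosphatase SHP-2 that PD-1 recruits, was higher in Nr4a-TKO preTreg than in WT Treg (1.09 ± 0.17, adjusted p = 0.00787). The ubiquitin ligase gene Cblb was higher in WT Treg than in WT Tconv (1.23 ± 0.13, adjusted p = 0.00253) and lower in Nr4a-TKO preTreg than in WT Treg (-0.85 ± 0.13, adjusted p = 0.00804). Foxp3-KO preTreg against WT Treg gave 0 calls in limma for this list, with 4 at an unadjusted p under 0.05, where 3.48% of all tested genes were called higher and 2.93% lower.

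Of 22 tested transcription factors linked to these receptors, 12 were called higher and 5 lower in Nr4a-TKO preTreg against WT Treg, where 19.5% and 15.9% of all tested genes were. Against Foxp3-KO preTreg 12 were called higher and 4 lower, where 18% and 15.7% of all tested genes were. Irf4, a factor induced by T cell receptor signals, was higher in Nr4a-TKO preTreg than in WT Treg (1.39 ± 0.07, adjusted p = 0.000526) and than in Foxp3-KO preTreg (1.75 ± 0.07, adjusted p = 0.000273). Batf, which binds DNA beside IRF4, was higher in Nr4a-TKO preTreg than in Foxp3-KO preTreg (2.18 ± 0.18, adjusted p = 0.00188). Foxo1 (-1.19 ± 0.11, adjusted p = 0.00164) and Ikzf2 (-1.31 ± 0.15, adjusted p = 0.00332) were lower in Nr4a-TKO preTreg than in WT Treg, and Tox was lower there than in Foxp3-KO preTreg (-0.78 ± 0.07, adjusted p = 0.00255).

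The genes whose profile over the 8 arrays was most like that of each receptor were ranked by the root mean square difference of mean-centred log2 signals, where 0 is an identical profile. For Lag3, Havcr2, Tigit, Lilrb4a and Lilr4b the distance includes WT Tconv values not well above background. For Lag3 the nearest was Lilr4b at 0.22. Those nearest to Havcr2 were Tubb6, a tubulin, at 0.27, Alcam at 0.47 and Bhlhe40 at 0.55. For Ctla4 they were Gm16894 at 0.44, Map6 at 0.52 and Fn1 at 0.58, and for Pdcd1 they were Xdh at 0.19, Nlrp1a at 0.21 and Sult2b1 at 0.23. Cd200 was nearest to Slc16a3, a lactate transporter, at 0.18, Btla to Mbnl1 at 0.05 and Vsir to Crlf2 at 0.10. Tigit had its nearest gene, Ttbk1, at 0.53, and Lilrb4a had Srxn1 at 0.72 and Zbtb32 at 0.77. Among pairs of receptors, Btla and Vsir stood 0.30 apart, Cd200 and Pdcd1 0.43 and Ctla4 and Havcr2 0.60. The signals were centred but not scaled, so genes that vary little tend to have small distances. These are descriptions over 8 arrays that share 4 groups.

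Promoter sequence from RefSeq (GRCm38.p6), 250 bases before to 50 after the gene start, was held for 7 of the 9 genes, all but Lag3 and Lilrb4a. It was searched on both strands for the Nr4a monomer site AAAGGTCA, the NFAT core GGAAA, the AP-1 site TGANTCA and the forkhead site TGTTTAC, which occur in 1.51%, 61.3%, 7.81% and 3.65% of 32851 such promoters. The NFAT core was found 1 time in Ctla4, 2 times in Pdcd1 and 2 times in Tigit, and the AP-1 site 1 time in Havcr2. The Nr4a and forkhead letters were in none of the 7 windows. The sequences of Ctla4, Havcr2 and Tigit, which were low or undetected in WT Tconv, are shown beside that of Btla, which differed least between groups, in the direction of transcription with matches in capitals.
Ctla4, chr1:60908775-60909074, plus strand: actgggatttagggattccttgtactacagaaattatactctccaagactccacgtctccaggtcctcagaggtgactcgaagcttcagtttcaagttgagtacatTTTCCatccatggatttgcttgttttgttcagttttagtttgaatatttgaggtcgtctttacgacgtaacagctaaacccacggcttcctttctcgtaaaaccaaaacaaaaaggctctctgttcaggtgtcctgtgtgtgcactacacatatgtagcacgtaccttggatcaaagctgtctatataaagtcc
Havcr2, chr11:46454681-46454980, plus strand: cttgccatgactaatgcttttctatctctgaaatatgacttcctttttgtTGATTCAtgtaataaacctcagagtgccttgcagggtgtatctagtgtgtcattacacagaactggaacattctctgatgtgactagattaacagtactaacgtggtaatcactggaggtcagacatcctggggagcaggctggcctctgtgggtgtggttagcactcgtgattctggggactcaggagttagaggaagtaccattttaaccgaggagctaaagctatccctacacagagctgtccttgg
Tigit, chr16:43664135-43664434, minus strand: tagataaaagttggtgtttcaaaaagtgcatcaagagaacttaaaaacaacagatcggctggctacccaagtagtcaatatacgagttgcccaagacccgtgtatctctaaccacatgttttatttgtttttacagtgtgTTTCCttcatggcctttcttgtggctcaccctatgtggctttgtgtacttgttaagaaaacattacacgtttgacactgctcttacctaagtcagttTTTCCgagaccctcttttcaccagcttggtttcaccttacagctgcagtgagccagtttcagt
Btla, chr16:45224087-45224386, plus strand: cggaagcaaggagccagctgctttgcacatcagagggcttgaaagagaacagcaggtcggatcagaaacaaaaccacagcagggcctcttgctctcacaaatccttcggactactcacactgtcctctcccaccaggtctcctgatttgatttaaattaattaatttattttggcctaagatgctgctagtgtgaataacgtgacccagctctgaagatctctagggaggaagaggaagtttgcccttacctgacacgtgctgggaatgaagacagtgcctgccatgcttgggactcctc

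The capitals mark an NFAT core match in Ctla4 and Tigit, where it reads TTTCC because it lies on the opposite strand, and the AP-1 match in Havcr2. Btla, Cd200 and Vsir had no match to any of the 4 motifs in this window. A match of letters is not a measured binding site.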

How the data were processed

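RNA (10 ng) was labelled with Cy3 and hybridised to 8 one-colour Agilent arrays. Per the file headers, the deposited values are processed spot intensities that Agilent Feature Extraction 10.7.1.1 had background-subtracted. A linear intensity matrix, scaled within each array by the authors, served as an alternative. Control and outlier spots were removed, and saturated spots numbered 0. Processed intensity was put on the log2 scale, spots of a probe were averaged and each array's 75th percentile was taken off.

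Symbols came from each probe's RefSeq accession (28020 of 55681 probes named, 21150 genes, 1776 accessions unmatched). The brightest probe stood for a gene, and genes were tested where it was well above background on both arrays of 1 group or more. limma 3.58.1 under R 4.3.3 (lmFit, eBayes) fitted all 8 arrays together, with residual and prior degrees of freedom of 4 and 1.59, and tested 6 comparisons with Benjamini-Hochberg adjustment. The number of arrays limits the precision. On simulated data the procedure was tested with known changes, and no result given here rests on that test. Named genes are the 9 receptors, Lilr4b, the targeted genes, up to 4 called genes with the smallest adjusted p per pathway list and comparison, and the 3 nearest profiles of each receptor. The receptors and lists were chosen with earlier results of these data known. The files are annotated on an older genome build, so the only coordinates given are those of the RefSeq promoters. Some genes are not reported here. Alternatives covered scaling, background correction, the deposited matrix, filters, probe choice, groups fitted, replicate number as a block and left-out arrays. Figures were drawn with matplotlib 3.10.9.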

Additional observations from a re-analysis of the deposited data

How the results depend on the processing

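Of 38 receptor calls, 21 held with each array left out in turn and 17 were lost without some array. Of the alternative values of receptor differences, 866 kept direction and side of the threshold, 67 lost the call, 17 gained it and 10 changed sign. Only 5 receptors (Ctla4, Pdcd1, Btla, Vsir and Cd200) passed a filter for signal above background on all arrays, and of these 5 were called in Nr4a-TKO preTreg against WT Tconv, 4 in Foxp3-KO preTreg and 3 in WT Treg against WT Tconv, 4 in Nr4a-TKO preTreg against WT Treg, 1 in Foxp3-KO preTreg against WT Treg and 5 between the precursor groups. A fit of only the groups compared called 3 in Foxp3-KO preTreg against WT Tconv and 3 between the precursor groups, with 1285 and 893 genes in all, and 0 genes in Foxp3-KO preTreg against WT Treg. In Foxp3-KO preTreg against WT Treg 1 receptor was called with quantile normalization, normexp and the deposited matrix, and 2 without Nr4a-TKO preTreg replicate 2 and Foxp3-KO preTreg replicate 1 together, with 1500 genes in all, a removal that gave 6007 genes in WT Treg against WT Tconv. Without the filter on dim probes 2142 genes were called in Foxp3-KO preTreg against WT Tconv, 400 in Foxp3-KO preTreg against WT Treg and 7371 between the precursor groups, where the tested genes gave 3325, 865 and 4559. Median scaling called 5023 genes in Foxp3-KO preTreg against WT Tconv. It moved the median of all genes there to -0.25, against -0.10, and the share of calls that were higher to 22.6%, against 42.1%. In WT Treg against WT Tconv that share was 25.8%, against 39.1%, in Nr4a-TKO preTreg against WT Treg 67.1%, against 55.0%, and between the precursor groups 66.7%, against 53.4%.

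Leaving out each array in turn, with the lone array of its group assumed to vary like the other groups, gave 8 to 9 receptors and 3082 to 7178 genes in Nr4a-TKO preTreg against WT Tconv, 2 to 8 and 470 to 4137 in Foxp3-KO preTreg against WT Tconv, 5 to 7 and 1657 to 5730 in WT Treg against WT Tconv, 2 to 7 and 2122 to 5836 in Nr4a-TKO preTreg against WT Treg, 0 to 3 and 71 to 1342 in Foxp3-KO preTreg against WT Treg, and 4 to 9 and 2027 to 5335 between the precursor groups. Signs turned only for differences that were not called. In WT Treg against WT Tconv these were Btla with quantile normalization (0.00068) and Vsir with median scaling (-0.066), the mean of its probes (-0.071) and its second probe (-0.22). In Foxp3-KO preTreg against WT Treg they were Cd200 with normexp (0.015), Lag3 (-0.94) and Lilrb4a (-1.05) without Foxp3-KO preTreg replicate 1, alone or together with Nr4a-TKO preTreg replicate 2, and Havcr2 without Foxp3-KO preTreg replicate 2 (0.052). Over all removals of 1 array Lag3 ranged from -0.94 to 1.71, Lilrb4a from -1.05 to 1.63 and Havcr2 from -1.47 to 0.052. The cause was not tested.

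Replicates of different groups share only a number, and their deviations correlated at -0.03 to 0.26 over the 6 pairs of groups. With the replicate number as a block 9, 7 and 7 receptors were called against WT Tconv in Nr4a-TKO preTreg, Foxp3-KO preTreg and WT Treg, 7 and 0 against WT Treg in Nr4a-TKO preTreg and Foxp3-KO preTreg, and 7 between the precursor groups, where Pdcd1 was not called (adjusted p = 0.0632). The block called 6212, 2936, 4482, 4487, 605 and 4150 genes in the same order.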
